A study of Homo sapiens with 4 samples.

Results

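The integrated stress response and its ATF4 target genes were examined as a set of 40 genes, picked by symbol from published knowledge of the pathway and from the rise of ATF3 and PPP1R15A in these cells. All 40 symbols were found among the 18398 genes of the deposited tables. RNA had been sequenced from Huh1 and Huh7, both established human hepatocellular carcinoma cell lines. Each line had been transfected with 15 nM CDCA8-1siRNA or with NCsiRNA and harvested after 48 h. CDCA8-1siRNA targets the chromosomal passenger complex subunit CDCA8 (borealin), and NCsiRNA is a control siRNA without an endogenous target. The labels give the cell line and CDCA8 or negative control siRNA. Dose, siRNA variant, time and the lack of a target of NCsiRNA come from the study's text. There were 4 libraries, 1 for each line and siRNA, so no condition had a replicate and a difference within a line was 1 library against 1. The question was whether the rise of ATF3 and PPP1R15A extended to the rest of the pathway.

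In the integrated stress response, kinases that sense heme shortage, unfolded proteins in the endoplasmic reticulum or missing amino acids phosphorylate the translation factor eIF2. Bulk translation then slows, while the mRNA of the transcription factor ATF4 is translated more. ATF4, paired with C/EBP proteins, switches on genes for amino acid synthesis and uptake, for tRNA charging and for stress signalling, among them ATF3, DDIT3 (CHOP), TRIB3, CHAC1 and ASNS. PPP1R15A (GADD34) closes the loop by bringing a phosphatase back to eIF2. In liver cells the pathway is known for its response to amino acid limitation and endoplasmic reticulum stress, and much of it is set by translation and phosphorylation, which RNA levels do not measure.

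Levels are given as RPKM (the number of reads divided by the length of the transcript and by the depth of the library), which can be compared between genes. Depth was 13384836, 13193713, 12197606 and 12266642 reads for Huh1 with NCsiRNA, Huh1 with CDCA8-1siRNA, Huh7 with NCsiRNA and Huh7 with CDCA8-1siRNA. The targeted gene CDCA8 was at 24.1 RPKM in Huh1 and 51.5 RPKM in Huh7 with NCsiRNA and at 5.86 and 7.36 RPKM with CDCA8-1siRNA. All 12 hepatocyte markers checked were at or above 1 RPKM in every library. Their summed level was 4924 and 3833 RPKM in Huh1 and 2818 and 2032 RPKM in Huh7 (NCsiRNA first). Of the 12, 7 were called lower with CDCA8-1siRNA and 0 higher, where 4.21% and 6.03% of all genes tested were. TTR went the other way in Huh7, from 29.3 to 48.5 RPKM, and TTR and AFP differed in sign between the lines. Of the markers of other cells, the 3 endothelial genes measured stayed below 1 RPKM, as did 3 of 4 leukocyte genes, while CD68 lay between 3.71 and 23.3 RPKM. The 5 fibroblast genes summed to 12.1, 25.8, 283 and 377 RPKM in the same order of libraries, LUM was called higher, and the 4 others were below 1 RPKM in both Huh1 libraries. Their part in the results below was not tested, and fewer cells of a type cannot be told apart from less RNA per cell in bulk samples.

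Promoter stretches of 6 genes of the list that hold one of 2 known motifs are shown first, because ATF4 with a C/EBP partner is known to bind the composite letters TGATGNAA, and ATF and CREB proteins the letters TGACGTCA. The sequences are RefSeq's on GRCh38.p14, 5′ to 3′ on the strand of the gene, with the match in capitals.
ATF3 (chr1:212565205-212565234, + strand): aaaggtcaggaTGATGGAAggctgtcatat
CHAC1 (chr15:40953251-40953280, + strand): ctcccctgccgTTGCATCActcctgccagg
CEBPG (chr19:33374060-33374089, + strand): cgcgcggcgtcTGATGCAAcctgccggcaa
ASNS (chr7:97872458-97872487, - strand): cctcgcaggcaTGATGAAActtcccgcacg
JDP2 (chr14:75427995-75428021, + strand): atagccggggcTGATGCAAcccgtccc
PPP1R15A (chr19:48872352-48872381, + strand): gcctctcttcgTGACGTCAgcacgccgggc
Counted from the start site of the RefSeq promoter table, the first match base lay 191 bases upstream for ATF3, 209 for CHAC1 (where the match is on the opposite strand), 42 for CEBPG, 68 for ASNS, 16 for JDP2 and 58 for PPP1R15A. GENCODE's gene spans start elsewhere, and those of CHAC1, CEBPG, ASNS and JDP2 include the match. Windows from 250 bases before to 50 after a start site were found for 32 of the 40 genes, and both strands were read. TGATGNAA was in the windows of 9 of these 32 (28.1%), against 4.46% of all 27305 genes in the table and 3.62% of its 35116 windows. The other genes with a match were FGF21 and PPP1R15B before the RefSeq start and SLC3A2 and SLC7A1 after it. TGACGTCA was in the windows of PPP1R15A alone among the 32 (3.13%), against 2.25% of all genes and 1.85% of all windows. Of the 8 genes called by limma, TRIB3 and DDIT4 held neither run of letters in their windows, and EIF4EBP1 and SHMT2 had no window. The list holds known ATF4 targets, so the share is a description of the list.

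The RNA changes did not run in 1 direction along the pathway. Over both cell lines, limma called 3 of the 38 tested genes higher with CDCA8-1siRNA (ATF3, PPP1R15A and TRIB3) and 5 lower (CEBPG, CHAC1, DDIT4, EIF4EBP1 and SHMT2). Among all 10357 genes tested, 6.03% were called higher and 4.21% lower, against 7.89% and 13.2% of the 38. Calls within the small role groups below are to be read against these shares of all genes. ATF3 and PPP1R15A had prompted the list. Of the other 36 genes tested, 1 (TRIB3) was called higher, which is 2.78%. The median change of the 38 genes was 0.012 on the log2 scale, beside 0.026 for all genes tested. The fit used log2(RPKM + 1) with the cell line as a term and Benjamini-Hochberg adjustment over all genes, and called an adjusted p under 0.05. Its p-values measure whether both lines changed alike and not the spread of repeated transfections. Without the filter on low values, or without the cell line term, limma called none of the list and none of all genes tested. In these fits 10 and 1 genes of the list had an unadjusted p under 0.05, and the count over all genes was not taken. In the fit described, 14 of the 38 had one, beside 2694 of all 10357 genes tested.

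**Figure D1:**
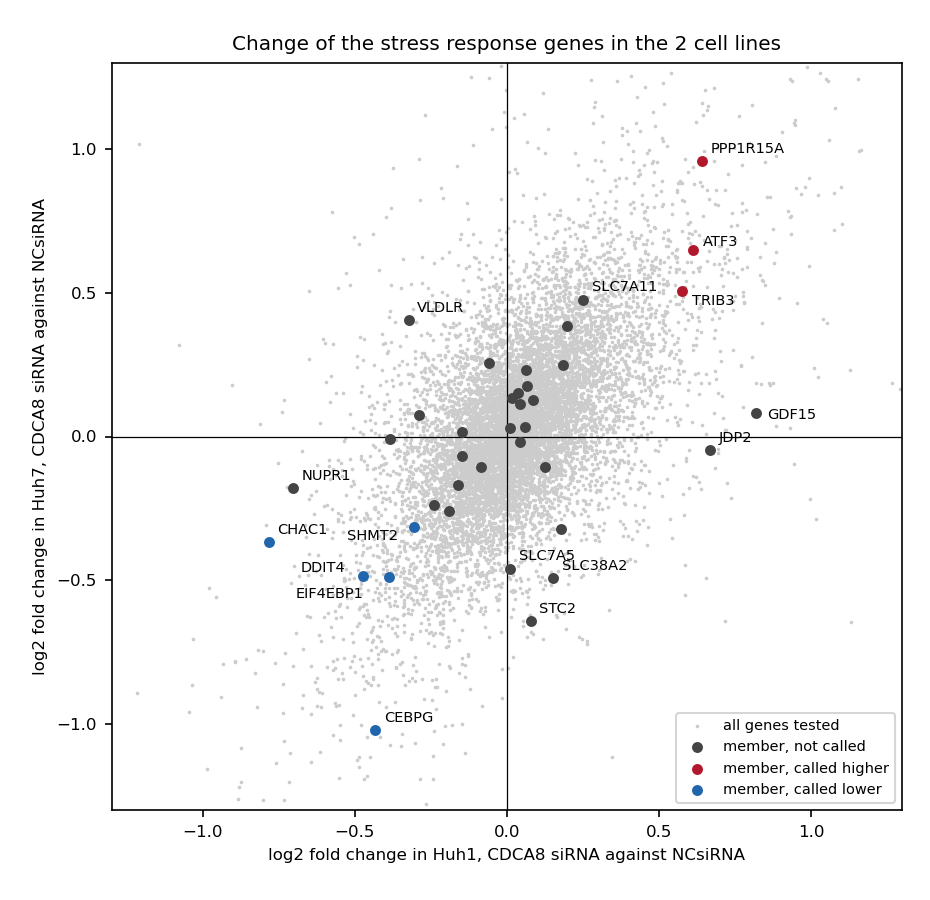
Log2 change with CDCA8-1siRNA against NCsiRNA in Huh1 (x axis) and Huh7 (y axis) on the log2(RPKM + 1) scale, 1 library against 1; grey points are all genes tested, of which 46 lie outside the axes at 1.3, and large points are the stress response genes, red where limma called them higher and blue where lower. ATF3, PPP1R15A and TRIB3 sit at the upper right and CEBPG at the lower left, while GDF15 and JDP2 lie far right but near 0 in Huh7.

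Within a line, changes were counted on the same scale among genes with at least 1 RPKM in 1 of the 2 libraries. In Huh1, 38 genes of the list passed this filter, 22 higher and 16 lower with CDCA8-1siRNA. ATF3, PPP1R15A, GDF15 and JDP2 were at least 1.5-fold higher and CHAC1 and NUPR1 were lower by the same measure, 4 and 2 genes, against 2.48% and 1.27% of all 10940 genes. Under quantile normalization ATF3 and JDP2 did not reach 1.5-fold there. None reached 2-fold in Huh1, a size seen in 0.320% of all genes among the higher and 0.174% among the lower ones. In Huh7, 39 genes passed, 20 higher and 19 lower. There ATF3 and PPP1R15A were higher by 1.5-fold or more, and CEBPG and STC2 lower, 2 genes each, against 5.30% and 3.42% of all 11565 genes. ATF3 and PPP1R15A had prompted the list, so their place in the counts of both lines is no separate result. Apart from them, GDF15 and JDP2 were 1.5-fold higher in Huh1 on this scale and no gene of the list was in Huh7. CEBPG, lower in Huh7, was the 1 gene of the list past 2-fold on this scale, beside 0.700% of all genes in that direction and 0.873% in the other. The added 1 RPKM makes ratios smaller. In plain RPKM, TRIB3 (1.51 times) and JDP2 (2.10 times) in Huh1 and ALDH1L2 (1.52 times) in Huh7 also passed 1.5-fold, and JDP2 passed 2-fold. Within 1.2-fold of the control were 24 genes of the list in Huh1 (63.2%) and 23 in Huh7 (59.0%), beside 75.3% and 63.7% of all genes. The median change was 0.028 in Huh1 and 0.015 in Huh7, beside 0.023 and 0.033 for all genes.

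At the top of the pathway, the RNA of the eIF2 kinases did not pass the test, with 0 of 3 called. EIF2AK1 (HRI), the kinase that senses heme shortage, was at 59.0 and 60.8 RPKM in Huh1 and at 75.3 and 74.3 RPKM in Huh7, NCsiRNA first. EIF2AK3 (PERK), the kinase of the endoplasmic reticulum, was at 7.70 and 7.81 RPKM in Huh1 and at 12.3 and 13.6 RPKM in Huh7. EIF2AK4 (GCN2), which is activated by uncharged tRNA, was at 14.2 and 16.3 RPKM in Huh1 and at 15.8 and 18.97 RPKM in Huh7. With CDCA8-1siRNA the level of EIF2AK4 was 1.15 and 1.199 times the control in Huh1 and Huh7, and EIF2AK1 was the most abundant of the 3 kinases in all 4 libraries. The limma changes were 0.01 for EIF2AK1 (-0.00367 under upper quartile scaling), 0.08 for EIF2AK3 and 0.22 for EIF2AK4 on the log2 scale, with 95% confidence limits from -0.18 to 0.21 for EIF2AK1, -0.17 to 0.32 for EIF2AK3 and -0.01 to 0.44 for EIF2AK4. Of the exon bases of EIF2AK1 and EIF2AK3, 9.59% and 15.1% overlap a gene on the other strand, and reads of the 2 strands cannot be told apart in these libraries.

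The 2 regulatory subunits that direct protein phosphatase 1 to eIF2 differed in their values. PPP1R15A, the stress-inducible subunit (chr19:48872392-48876057 on GRCh38), was at 16.6 RPKM with NCsiRNA and 26.4 RPKM with CDCA8-1siRNA in Huh1. In Huh7 it was at 28.4 and 56.1 RPKM, and it was higher with CDCA8-1siRNA in both lines, by 1.59 and 1.97 times in RPKM. It had the largest limma rise of the list, 0.80 ± 0.107 (SE) on the log2 scale (adjusted p = 0.00344, higher in 2 of 2 lines). PPP1R15B, the constitutive subunit (chr1:204403387-204411791), was at 25.7 and 26.5 RPKM in Huh1 and at 31.8 and 34.5 RPKM in Huh7. With CDCA8-1siRNA it was at 1.03 and 1.08 times the control, and its limma change was 0.08 with 95% limits from -0.13 to 0.29. PPP1R15B holds the TGATGNAA match and PPP1R15A the TGACGTCA match given above.

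**Figure D2:**
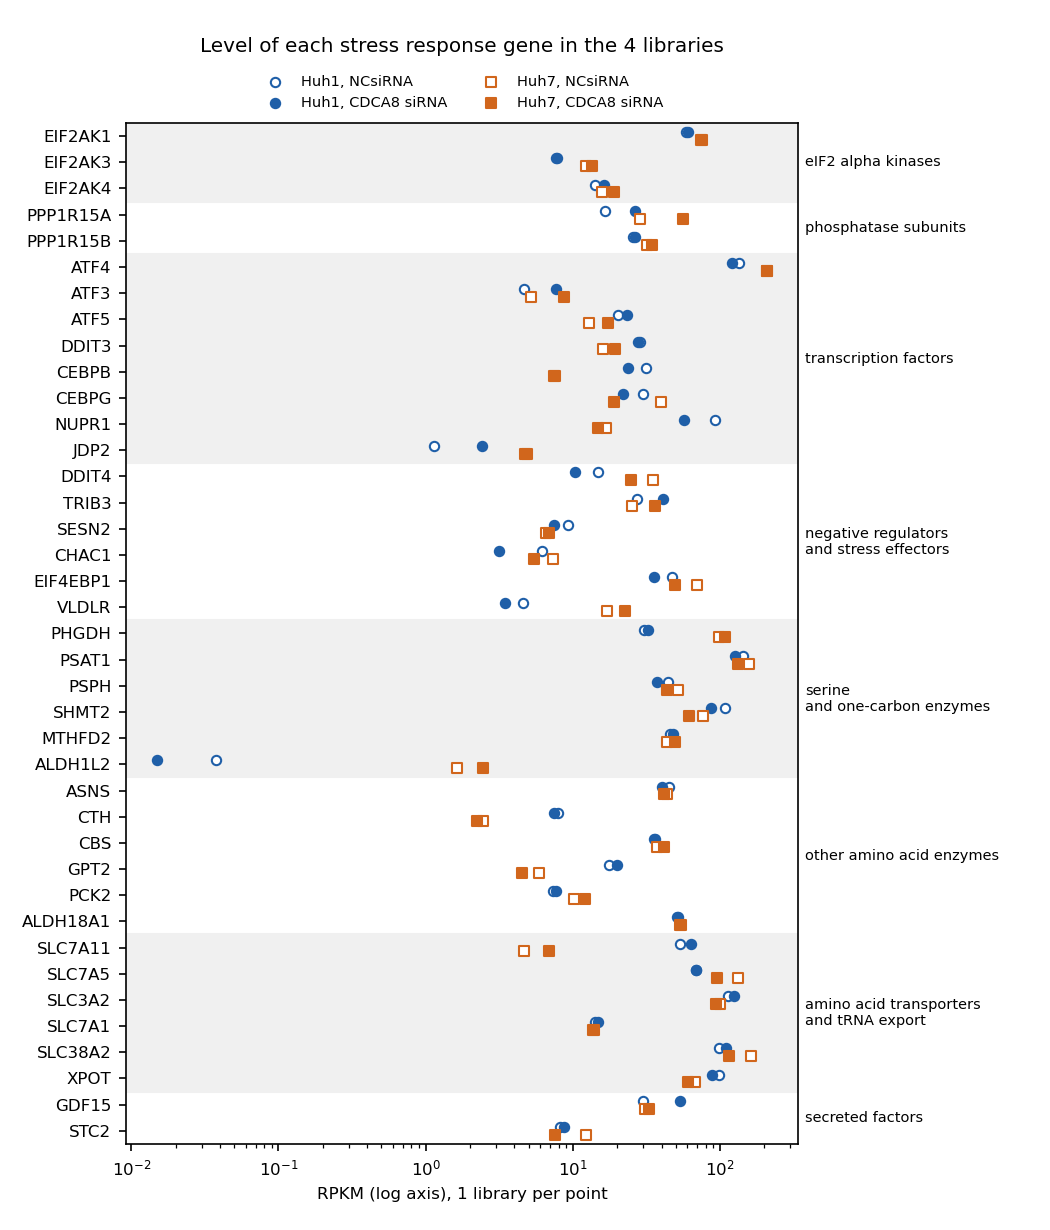
RPKM of each stress response gene (log axis) in the 4 libraries, 1 library per point, blue circles for Huh1 and orange squares for Huh7, open for NCsiRNA and filled for CDCA8-1siRNA; FGF21, at 0 in every library, is not drawn. Open and filled points of 1 line mostly lie close together, whereas blue and orange are far apart for SLC7A11, NUPR1, VLDLR and ALDH1L2.

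Of the transcription factors, limma called ATF3, which had prompted the list, higher and CEBPG lower, and the other 6 of 8 did not pass. Over all genes tested, 6.03% were called higher and 4.21% lower. ATF4, the central factor (chr22:39519695-39522685), was at 134 and 121 RPKM in Huh1 and at 208 and 210 RPKM in Huh7, among the highest levels of the list. Its RNA was slightly lower in Huh1 and level in Huh7, and the limma change was -0.07 with 95% limits from -0.25 to 0.12. ATF3, a bZIP factor induced by ATF4 (chr1:212565334-212620777), was at 4.68 and 7.67 RPKM in Huh1 and at 5.21 and 8.74 RPKM in Huh7, both CDCA8-1siRNA values lying above both controls. About 132 and 214 reads in Huh1 and 134 and 227 in Huh7 stand behind these values, and sampling of reads alone gives each log2 difference an SD of 0.135. The limma rise of ATF3 was 0.63 ± 0.114 (SE, adjusted p = 0.0116, higher in 2 of 2 lines). DDIT3, the pro-apoptotic factor CHOP (chr12:57516588-57521737), was at 28.7 and 27.5 RPKM in Huh1 and at 16.02 and 19.3 RPKM in Huh7. The sign of the DDIT3 difference was not the same in both lines, with a log2 value of -0.06 in Huh1 and 0.26 in Huh7 and limma limits from -0.15 to 0.35. Of its exon bases 31.6% of its exon bases overlap genes on the other strand, MARS among them.

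CEBPG, a partner of ATF4 with the composite match shown above (chr19:33373330-33382686), was at 30.0 and 22.0 RPKM in Huh1 and at 39.7 and 19.05 RPKM in Huh7. It fell in both lines, most in Huh7, where the CDCA8-1siRNA value was 0.480 times the control, and it had the largest limma fall of the list, -0.73 ± 0.135 (SE, adjusted p = 0.0129, lower in 2 of 2 lines). NUPR1, a small chromatin protein of the stress response, was at 93.1 and 56.8 RPKM in Huh1 and at 16.9 and 14.8 RPKM in Huh7 (limma -0.44, adjusted p = 0.0567). JDP2, a bZIP repressor of AP-1, was at 1.14 and 2.41 RPKM in Huh1 and at 4.89 and 4.70 RPKM in Huh7, about 83 and 171 reads in Huh1. The JDP2 difference was thus in Huh1, on the lowest level among these 8 factors, and the gene did not pass over both lines (limma 0.31, adjusted p = 0.308). ATF5, an ATF4 relative that is also regulated by translation, gave log2 differences of 0.20 and 0.39 in Huh1 and Huh7 (adjusted p = 0.109), and CEBPB, another C/EBP partner, gave -0.38 and -0.01 (adjusted p = 0.339). Of their exon bases, 21.2% for ATF5 and 11.8% for CEBPB overlap genes on the other strand.

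The negative regulators and stress effectors moved in both directions, with 1 of 6 called higher and 3 lower, beside 6.03% and 4.21% of all genes. TRIB3, a pseudokinase that restrains ATF4 and Akt (chr20:362835-397559), was at 27.1 and 40.9 RPKM in Huh1 and at 25.2 and 36.3 RPKM in Huh7. TRIB3 rose by a like amount in both lines, 1.51 and 1.44 times in RPKM (limma 0.54 ± 0.0931, SE, adjusted p = 0.00962). CHAC1, an enzyme that degrades glutathione (chr15:40952962-40956519), was at 6.15 and 3.16 RPKM in Huh1 and at 7.30 and 5.43 RPKM in Huh7. Both CDCA8-1siRNA values of CHAC1 were below both controls. Behind them stand about 128 and 65 reads for Huh1 and 139 and 104 for Huh7, with counting SDs of 0.174 and 0.161 for the log2 differences of -0.78 and -0.37 (limma -0.58 ± 0.136, SE, adjusted p = 0.0304). ATF3 and CHAC1, textbook ATF4 targets both with a TGATGNAA match in the promoter, were called in opposite directions.

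DDIT4 (REDD1), an inhibitor of mTORC1 (chr10:72273920-72276036), was at 14.8 and 10.4 RPKM in Huh1 and at 35.2 and 24.8 RPKM in Huh7. The CDCA8-1siRNA value was 0.702 and 0.706 times the control, a fall of nearly the same size in both lines (limma -0.48 ± 0.0980, SE, adjusted p = 0.0184), and 41.2% of its exon bases overlap DDIT4-AS1. EIF4EBP1, which holds back cap-dependent translation by binding eIF4E, was at 47.1 and 35.8 RPKM in Huh1 and at 69.9 and 49.4 RPKM in Huh7, lower with CDCA8-1siRNA in both (limma -0.44 ± 0.0895, SE, adjusted p = 0.0183). SESN2, a leucine sensor upstream of mTORC1, gave log2 differences of -0.29 in Huh1 and 0.07 in Huh7 (adjusted p = 0.638). VLDLR, a lipoprotein receptor, gave -0.32 and 0.41 (adjusted p = 0.900).

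**Figure D3:**
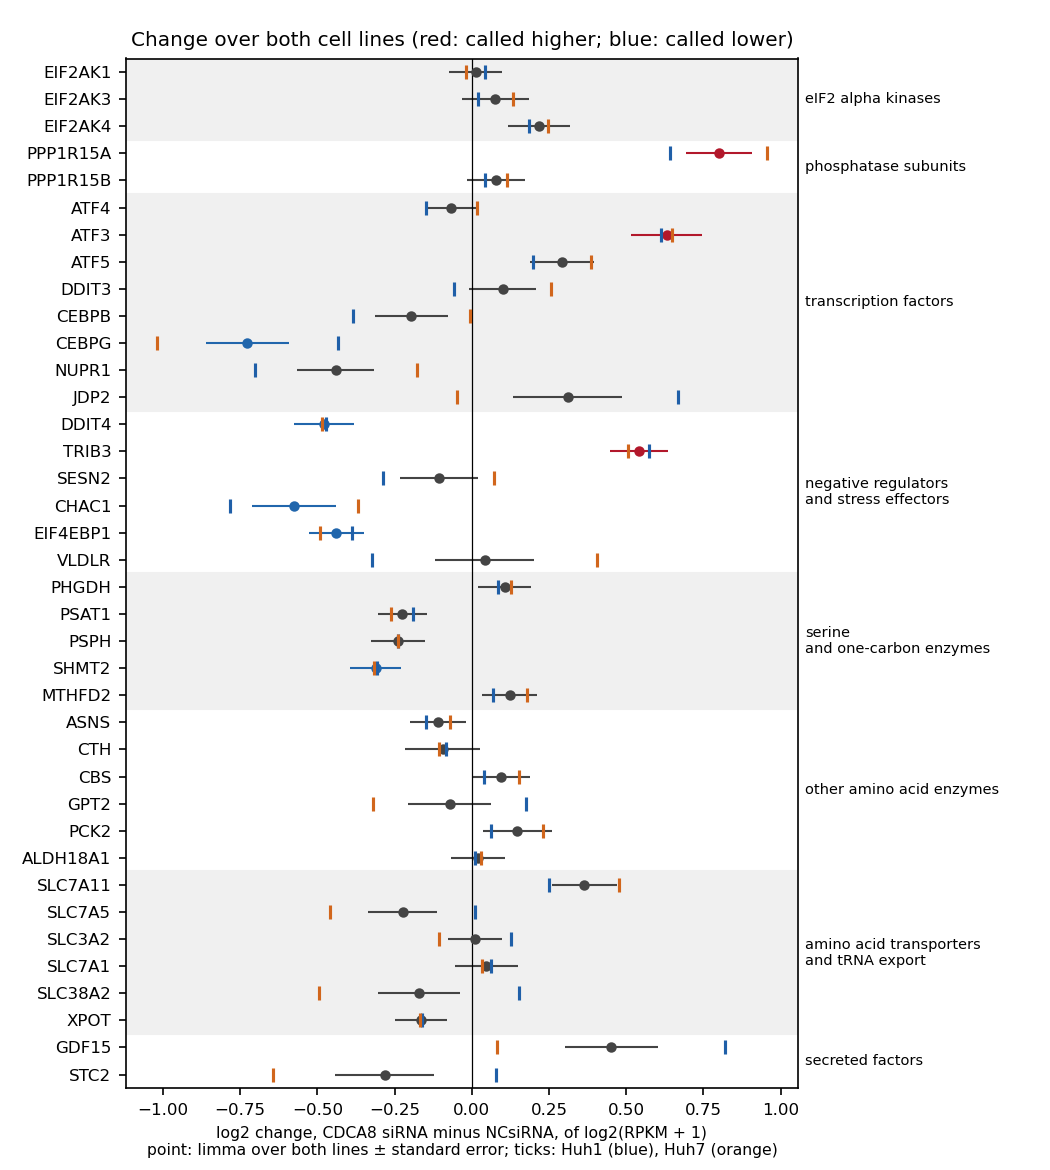
Log2 change with CDCA8-1siRNA on the log2(RPKM + 1) scale for the 38 genes tested, grouped by role; points and bars are the limma estimate over both lines ± SE, red where called higher and blue where lower, and ticks are the differences in Huh1 (blue) and Huh7 (orange). PPP1R15A at 0.80 and CEBPG at -0.73 mark the ends, and the ticks fall on opposite sides of 0 for VLDLR, STC2, JDP2 and SLC38A2.

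Among the enzymes of serine and one-carbon metabolism, 1 of the 5 tested was called, and it was lower, beside 4.21% of all genes. SHMT2, the mitochondrial serine hydroxymethyltransferase (chr12:57229327-57234935), was at 108 and 87.3 RPKM in Huh1 and at 76.8 and 61.5 RPKM in Huh7. It fell to 0.807 and 0.801 times the control (limma -0.31 ± 0.0829, SE, adjusted p = 0.0454), the smallest change among the 8 genes called. Without the mean-variance trend in limma its adjusted p was 0.107 (range over all alternatives 0.0135 to 1.0), and 9.51% of its exon bases overlap genes on the other strand. The serine synthesis enzymes PSAT1 and PSPH had limma changes of -0.23 and -0.24 (adjusted p = 0.106 and 0.125), lower in both lines, and PHGDH, the first enzyme of that route, had 0.11 (adjusted p = 0.488). MTHFD2, the mitochondrial folate dehydrogenase, had 0.12 (adjusted p = 0.440), and 33.2% of its exon bases overlap genes on the other strand. ALDH1L2, the mitochondrial formyltetrahydrofolate dehydrogenase, was at 0.0379 and 0.0148 RPKM in Huh1 and at 1.62 and 2.46 RPKM in Huh7, so it was not tested over both lines.

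None of the 6 other amino acid enzymes passed. ASNS, asparagine synthetase and the best known amino acid response gene (chr7:97852118-97872542), gave log2 differences of -0.15 in Huh1 and -0.07 in Huh7 (limma limits -0.31 to 0.09), with 44.6% of its exon bases shared with an overlapping gene on the same strand. CTH and CBS of transsulfuration gave limma changes of -0.09 and 0.10, the alanine transaminase GPT2 -0.07, the mitochondrial phosphoenolpyruvate carboxykinase PCK2 0.15, and ALDH18A1 of proline synthesis 0.02, with adjusted p from 0.452 for PCK2 to 0.907 for ALDH18A1. Of all 11 amino acid and one-carbon enzymes tested, 0 were called higher, a count to read against 6.03% of all genes.

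The amino acid transporters and the tRNA export receptor XPOT also gave 0 calls of 6. SLC7A11, the cystine carrier, came nearest, with log2 differences of 0.25 in Huh1 and 0.48 in Huh7 (limma 0.36, adjusted p = 0.0592). SLC7A5, the leucine carrier, and its partner SLC3A2 gave 0.01 and 0.13 in Huh1 and -0.46 and -0.11 in Huh7. The neutral amino acid transporter SLC38A2 gave 0.15 and -0.49, so SLC7A5 and SLC38A2 were lower than the control in Huh7 and not in Huh1. SLC7A1, a carrier of cationic amino acids, had a limma change of 0.05 (adjusted p = 0.817) and XPOT -0.16 (adjusted p = 0.251).

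The secreted factors of the list were not called either. GDF15, a stress hormone of the TGF-beta family (chr19:18374731-18389176), was at 29.9 and 53.6 RPKM in Huh1 and at 31.0 and 32.9 RPKM in Huh7. The Huh1 library with CDCA8-1siRNA stood apart from the other 3, a ratio of 1.79 against 1.06 in Huh7 (limma 0.45, adjusted p = 0.0945). STC2, stanniocalcin-2, was at 8.17 and 8.68 RPKM in Huh1 and at 12.3 and 7.52 RPKM in Huh7, so its difference was in Huh7 (limma -0.28, adjusted p = 0.308). FGF21, a liver hormone whose promoter has a composite match, was at 0 in all 4 libraries, which at 3 reads allows a level of up to 0.171 to 0.187 RPKM.

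The genes with a TGATGNAA match moved in no common direction. Of these 9 genes, 1 was called higher (ATF3) and 2 lower (CEBPG and CHAC1), 5 were tested and not called, and FGF21 was not tested. ATF3 had prompted the list, and 6.03% and 4.21% of all genes tested were called higher and lower. The median limma change of the match genes tested was 0.029 on the log2 scale, beside 0.012 for all genes of the list tested.

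Between the lines, more genes of the list were called than between the siRNAs. The p-values of this comparison measure whether the gap between the lines was alike under both siRNAs. They do not measure the spread of repeated cultures of a line. Of the 38 genes, limma called 14 higher and 10 lower in Huh7 than in Huh1 over both siRNAs, where 39.1% and 28.7% of all genes were, shares close to those of the list. The largest difference was that of SLC7A11, with 53.0 RPKM in Huh1 and 4.65 in Huh7 under NCsiRNA (limma -3.15 on the log2 scale, adjusted p = 1.68e-08). NUPR1 (-2.13), CEBPB (-1.72), GPT2 (-1.69) and CTH (-1.38) were also lower in Huh7, whereas VLDLR (2.04), PHGDH (1.68), DDIT4 (1.19) and JDP2 (1.10) were higher there. PPP1R15A was higher in Huh7 by 0.90 (adjusted p = 5.37e-05), and ATF3 was not called between the lines (0.15, adjusted p = 0.272). ATF4 and PSAT1 were the 2 genes above 100 RPKM in all 4 libraries. Across the list 38 genes were at or above 1 RPKM in every library, and the summed level of the 40 genes was 1596 and 1548 RPKM in Huh1 and 1743 and 1623 RPKM in Huh7, NCsiRNA first.

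Lists next to the pathway were counted in the same fit, against 6.03% of all genes called higher and 4.21% lower. An unadjusted p under 0.05 was common, with 2694 of all 10357 genes tested, and the counts at that limit below are to be read against it. Of 13 genes for eIF2, eIF2B and their regulators, 0 were called by limma, with 3 at an unadjusted p under 0.05, EIF2B3 (-0.44), IMPACT (0.36) and EIF2B4 (-0.26). Of 13 cytosolic tRNA synthetases, which ATF4 also controls, 0 were called, with 1 (YARS, -0.28) at an unadjusted p under 0.05. Of 15 genes of the endoplasmic reticulum unfolded protein response, 0 were higher and 2 lower, the chaperone HSPA5 (-0.33, adjusted p = 0.0301) and the disulfide isomerase PDIA4 (-0.37, adjusted p = 0.0228). Their medians were -0.0010, -0.05 and -0.14 on the log2 scale. Of 10 immediate early genes tested, 8 were called higher and 0 lower, with a median of 0.77. Many such genes respond within minutes to growth factors and stress, and ATF3 is also counted among them. JUNB (-0.30, lower in both lines) and DUSP1 (-0.06, of opposite sign in the lines) were not called. EGR1 and FOSB were left out of the test by the filter on low values. FOSL1, an AP-1 subunit, was at 11.96 and 26.4 RPKM in Huh1 and at 7.86 and 18.6 RPKM in Huh7 (limma 1.11, adjusted p = 0.000894), and KLF6, a zinc finger factor, was at 9.58 and 20.1 RPKM in Huh1 and at 22.5 and 42.8 RPKM in Huh7 (limma 0.95, adjusted p = 0.00129). CYR61, a secreted matrix protein, had the largest change (limma 1.18). This list was drawn up with earlier results of these libraries known, and the study itself had picked CYR61 and KLF2 from them, so its count is a description.

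**Figure D4:**
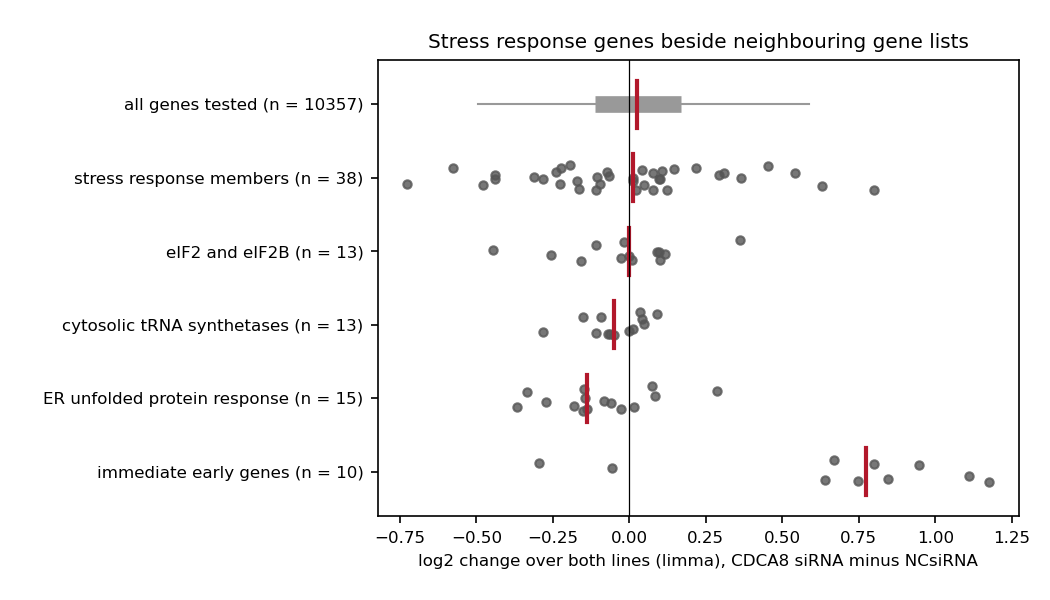
Limma log2 change with CDCA8-1siRNA over both lines for each gene (points) of 5 lists, with the median in red; the top row gives all 10357 genes tested as the central 50% (box) and 95% (line). The stress response genes spread on both sides of 0 around a median of 0.012, and 8 of 10 immediate early genes lie at 0.64 or above.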

How the data were processed

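Total RNA of Huh1 and Huh7 was made into libraries with a TruSeq RNA kit, which does not mark the strand. The authors deposited 1 value per RefSeq transcript and library without a stated unit, and these deposited values were taken as RPKM, because value times length piles up on multiples of 1 constant per library, from which depth and read numbers were taken. Of low values (0.5 to 10.5 reads), 36.8% to 40.2% per library lay within 0.05 of a whole number of reads, where values without steps would give 10%, and the length gave whole reads or simple parts of them for 19 of the 40 members (lengths from GENCODE release 29, so read numbers and counting SDs are approximate and cover counting error only). The submitters' processing notes name CASAVA 1.8.2, TopHat2 2.0.9 and hg19, with the counting tool not given in the sources used here. Gene positions are GENCODE's on GRCh38 and were not used to recount.

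Fold changes were differences of log2(RPKM + 1), where 1 RPKM is the pseudocount, which makes changes of low genes smaller. Genes needed 1 RPKM in at least 1 library of a line. limma 3.58.1 in R 4.3.3 (lmFit, eBayes with trend, line and siRNA as terms, 1 residual degree of freedom) was fitted to all 10357 genes, with Benjamini-Hochberg adjustment, in place of the ANOVA method of the study, whose design is not described. The lines, as pairs, are the block of this fit. The scripts were tested on simulated data with planted changes larger than those called in the list, which checks the code and not how reliable these calls are. Python 3.11.15 with numpy 2.4.6 and pandas 2.3.3 was used for the rest.

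The members and all gene lists were chosen with earlier results of these data known. Every member is named, with all 4 values for those called by limma, changed 1.5-fold in a line or central to the pathway. Of each other list at most 4 genes are named, to which the immediate early genes not called or not tested were added. Of the immediate early and endothelial lists, 1 gene each was not analysed here. Alternatives were a pseudocount of 0.1 RPKM, no filter, a minimum of 5 RPKM, upper quartile scaling, quantile normalization, limma without trend and limma without the line term. Pseudogenes named after a member (ATF4, ASNS, PSAT1 and MTHFD2 among others) may share its reads.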

Additional observations from a re-analysis of the deposited data

Results flagged for a closer look

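The genes below had changes of opposite sign in Huh1 and Huh7, 11 of the 38 tested, beside 3166 of 10357 over all genes. Values are the Huh7 log2 difference minus the Huh1 log2 difference on the log2(RPKM + 1) scale. With 1 library per condition this difference was not tested, and it is set only against the SD that counting of reads gives it. That SD is approximate, because it rests on transcript length. No length gave whole reads or simple parts of them for SLC38A2, STC2, JDP2, SLC3A2, GPT2, SESN2 and EIF2AK1. SLC38A2 (-0.646, 19.3 counting SDs) and SLC7A5 (-0.471, 11.7 counting SDs), both amino acid transporters, lay farthest beyond counting error. The lipoprotein receptor VLDLR (0.728) and the secreted factor STC2 (-0.722) followed with 7.64 and 6.86 counting SDs, and JDP2 (-0.716) with 4.80. SLC3A2 (-0.231), GPT2 (-0.497) and ATF4 (0.164) were at 4.38, 3.998 and 3.68 counting SDs. SESN2 (0.361) was at 2.56, while DDIT3 (0.314) and EIF2AK1 (-0.0623) were at 1.799 and 1.353, under 2 counting SDs. These counting SDs are for the difference between the lines and not for opposite directions. Within 1 counting SD of 0 were SLC7A5 (0.01) and DDIT3 (-0.06) in Huh1. In Huh7 the same held for ATF4 (0.02), JDP2 (-0.05), SESN2 (0.07) and EIF2AK1 (-0.02). The sign of these values is thus not settled.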

How the results depend on the processing

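The 8 calls with CDCA8-1siRNA remained with a pseudocount of 0.1 RPKM, with a minimum of 5 RPKM (10 calls, NUPR1 and SLC7A11 added) and with upper quartile scaling or quantile normalization (11 calls each, NUPR1, SLC7A11 and GDF15 added). Limma without the trend gave 7. Without a filter on low values the count was 0, as it was over all 18398 genes, where the prior degrees of freedom went from 8.29 to 0.917. Without the replicate block, that is without pairing the libraries by cell line, it was also 0. The calls between the lines went from 24 to 15 without the filter. In Huh1, 1 gene passed 2-fold with the pseudocount of 0.1 RPKM (JDP2, 1.011 on the log2 scale). Under upper quartile scaling, the limma changes of SLC3A2 (-0.00634) and EIF2AK1 (-0.00367) reversed, both near 0. Of the changes within a line, 370 values kept within counting error and 10 moved past it. Under quantile normalization ATF3 and JDP2 in Huh1 were under 1.5-fold. No replicate could be left out with 1 library per condition. Counting error was largest for genes with few reads, with an SD of the log2 difference of up to 0.174 in Huh1 (CHAC1) and 0.198 in Huh7 (CTH), and repeated transfections were not measured.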
